A study of Capra hircus with 10 samples.

Results

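The miRNA described here are those that classical expression maps place in surface and glandular epithelia: miR-205, miR-203, miR-184 and miR-375. They were sought by name, with the species prefix dropped and either arm accepted, among the 1804 mature miRNA counted in the goat mammary gland. Of the 4 names, 2 had rows, and these gave 3 members: miR-205-5p, miR-205-3p and miR-184. No row matched miR-203 or miR-375, which are not analysed here.

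The libraries came from 10 Alpine goats in full lactation, about 48 days after parturition when the trial began, and all were accustomed to a hay-based diet before it. The 4 Control goats (libraries L01, L04, L06 and L10) ate freely, and the other 6 (L02, L03, L05, L07, L08, L09; named FD) had no food, but free water, for the 48 h before slaughter. Total RNA of mammary tissue was sequenced as small RNA, with 1 library per goat, so the libraries of a diet were biological replicates. The tissue was whole gland, so fewer cells of a type and less of a miRNA per cell cannot be told apart in these values.

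A miRNA guides silencing proteins to messenger RNA through its seed, bases 2 to 8 from the 5′ end, and members with the same seed share most of their targets. miR-205 is known from stratified epithelia and from the basal layer of the mammary gland, where myoepithelial and progenitor cells lie. With the miR-200 family it represses ZEB1 and ZEB2, the repressors of E-cadherin, and so holds cells in the epithelial state. miR-184 is known from cornea, lens and epidermis, miR-203 from the differentiating layers of the skin, and miR-375 from the pancreatic islet and from glandular epithelia.

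The sequences of the 3 members are shown because they tell which rows were counted. The seed is in capitals and each sequence is 22 nt long, written as DNA.
miR-205-5p: tCCTTCATtccaccggagtctg
miR-205-3p: gATTTCAGtggagtgaagctca
miR-184: tGGACGGAgaactgataagggt
The 3 seeds differ, and of the 1804 rows 0 others carried the seed of a member. Likewise 0 other rows of the same length came within 1 mismatch of a member over the whole sequence, so no such copy was there to share its reads. miR-184 carries no arm in its name in the files and was placed on the 3p side of its precursor.

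The miR-200 family serves below as the epithelial reference, so the 5 sequences that hold nearly all of its reads are shown for comparison, again with the seed in capitals. The names without an arm are 3p rows.
miR-200b: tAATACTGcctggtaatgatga
miR-200c: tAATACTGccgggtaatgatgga
miR-429: tAATACTGtctggtaatgccg
miR-200a: tAACACTGtctggtaacgatg
miR-141: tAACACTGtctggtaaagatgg
miR-200b, miR-200c and miR-429 share 1 seed, and miR-200a and miR-141 share another. Neither is the seed of miR-205 or of miR-184.

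Both arms of miR-205 came from 1 precursor that the authors predicted from the reads of all libraries together. It lay at chr16:71539831-71539889 on the minus strand of the goat assembly CHIR_1.0. The precursor is shown because it places the arms, which are in capitals, on either side of the loop, in lower case.
miR-205 precursor: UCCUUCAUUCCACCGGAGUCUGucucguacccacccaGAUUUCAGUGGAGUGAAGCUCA
The hairpin was 59 nt long with a loop of 15 nt. Its miRDeep2 score, which rates how well stacked reads fit the processing of a hairpin, was 90981.9, rank 1 of the 1070 predicted precursors. That list is labelled as one of miRNA new to goat, so the rank does not set miR-205 against known goat precursors. Both miR-205 rows carry mouse names, while miR-184 carries a goat name. Of 178448 reads on it, 177188 lay on the 5p arm, 1260 on the 3p arm and 0 on the loop. A fold predicted with RNAfold had a minimum free energy of -25.3 kcal/mol and 19 base pairs, 17 of them between the arms, with 6 bases of the 5p seed paired. The MIR184 gene is 83 bp long on chromosome 21 of the RefSeq gene table of assembly ARS1.2, where its neighbouring protein-coding genes are RASGRF1 and ANKRD34C.

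The members differed by orders of magnitude in level. Summed over the libraries, miR-205-5p had 176955 counts, miR-205-3p 1224 and miR-184 144, so that miR-205-5p made up 99.2% of the 178323 member counts. Levels below are normalized counts, that is counts divided by the DESeq2 size factor of the library. The ranges did not overlap: miR-205-5p lay between 6356 and 22928 in the 10 libraries, miR-205-3p between 54.6 and 160, and miR-184 between 0 and 47.2. In these libraries the counts of the members thus came almost wholly from miR-205-5p.

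miR-205-5p ranked 39 of the 1804 miRNA by mean level and made up 0.261% of all counts. Its neighbours in that order were miR-6119-5p (mean 16271) and miR-200c (mean 14892). miR-205-5p was above miR-200c in 6 libraries of 10, in 2 of 4 Control and 4 of 6 FD, so their order did not hold beyond the spread between goats. It was above miR-6119-5p in 0 of 4 Control libraries (mean 13437 against 19082) and in 4 of 6 FD libraries (17977 against 14396). The order of this pair of means thus differed between the diets. Neither miRNA passed the edgeR test between diets (Benjamini-Hochberg adjusted p = 0.195 for miR-6119-5p and 0.486 for miR-205-5p). miR-205-3p ranked 271, between miR-191-3p (110) and miR-7-5p (also 110). miR-184 ranked 513, between a pair of predicted miRNA at 13.3 and 13.0.

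The counts of each library summed to between 4495512 and 9842009. For miR-205-5p, with 4538 to 35905 counts per library, counting error was small beside the spread between goats. For miR-205-3p the counts were 39 to 267, and for miR-184 they were 0 to 62, so its values carried a large counting error. Intervals and floors given here cover counting error only, since no molecular identifiers are described for these libraries.

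miR-205-5p was higher on average in FD than in Control, but within the spread of the goats. In Control its normalized count was 11682 in L01, 15634 in L04, 6356 in L06 and 20077 in L10. In FD it was 10690 in L02, 22928 in L03, 22118 in L05, 20384 in L07, 21479 in L08 and 10264 in L09. The diets overlapped: 4 FD libraries lay above the highest Control library, while L02 and L09 lay below L01. The means were 13437 ± 5835 (SD, n = 4) for Control goats and 17977 ± 5870 (SD, n = 6) for FD goats. The log2 fold change, FD over Control, was 0.41 with a standard error of 0.31, and it did not pass the test (edgeR quasi-likelihood test, Benjamini-Hochberg adjusted p = 0.486 over 490 miRNA). The value was 0.19 without Control L06 and 0.61 without Control L10.

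**Figure D1:**
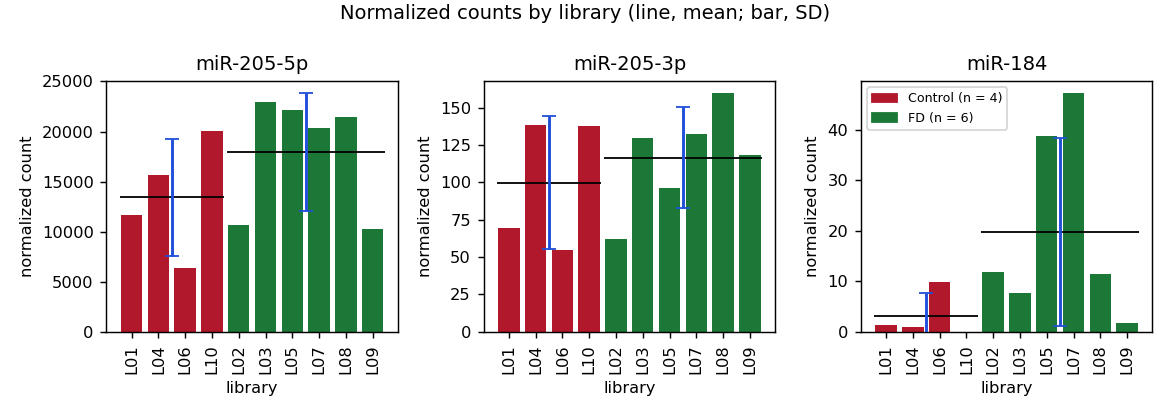
Normalized counts (vertical axis, a separate linear scale in each panel) of miR-205-5p, miR-205-3p and miR-184 in each of the 10 libraries (horizontal axis), with Control in red and FD in green. The black line is the mean of the diet and the blue bar its SD, cut off at 0. miR-205-5p lies between 6356 and 22928, and the miR-184 bars of L05 and L07 stand at 38.8 and 47.2 while no Control bar exceeds 9.80.

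The spread of miR-205-5p within a diet was wide for so abundant a miRNA. Its highest library was 3.16 times its lowest in Control and 2.23 times in FD. The SD within diets on the log2 scale was 0.61, against a median of 0.34 over the 490 miRNA tested. Of the 490, 72 had a larger SD, and of the 123 with a mean level of 1000 or more, 6 did. In Control L06 was lowest and L10 highest. In FD the values fell at 10264 and 10690 in L09 and L02 and between 20384 and 22928 in the other 4, with none between.

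miR-205-3p, the passenger arm of the same hairpin, overlapped between diets over nearly its whole range. In Control it stood at 69.1 in L01, 138 in L04, 54.6 in L06 and 137 in L10. In FD it stood at 61.9 in L02, 130 in L03, 96.5 in L05, 132 in L07, 160 in L08 and 118 in L09. L06 was again the lowest library, and only L08 lay above all Control libraries. The means were 99.8 ± 44.2 (SD, n = 4) and 116 ± 33.7 (SD, n = 6). The log2 fold change was 0.20 with a standard error of 0.31 (edgeR, Benjamini-Hochberg adjusted p = 0.739).

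miR-184 was near the limit of counting in Control and reached its highest values in FD. Its raw counts in Control were 1 in L01, 1 in L04, 7 in L06 and 0 in L10. In FD they were 11 in L02, 8 in L03, 33 in L05, 62 in L07, 19 in L08 and 2 in L09. On the normalized scale the Control libraries read 1.38, 0.981, 9.80 and 0, and the FD libraries, in the same order, 11.7, 7.68, 38.8, 47.2, 11.4 and 1.75. L05 and L07 stood far above the rest, 4 of the 6 FD libraries lay above the highest Control library, and L03 and L09 lay inside the Control range. The 0 of L10 allows a level of up to 0.400 CPM, counts scaled to the library total (a floor of 3 counts, a one-sided 95% limit). The 62 counts of L07 had a 95% exact Poisson interval of 47.5 to 79.5, the 33 of L05 of 22.7 to 46.3 and the 7 of L06 of 2.81 to 14.4.

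The Control libraries together gave 9 miR-184 counts, or 0.388 CPM, and the FD libraries 135, or 3.02 CPM. L05 and L07 alone supplied 95 of these, 70.4%. The mean normalized count was 3.04 ± 4.55 (SD, n = 4) for Control goats and 19.8 ± 18.6 (SD, n = 6) for FD goats. Only miRNA with a normalized count above 28 in at least 1 library were tested, which miR-184 passed through L05 and L07 and through no Control library, so it was tested because it was high in FD. Its log2 fold change of 2.80, with a standard error of 1.03, ranked 1 of 490 from the highest positive value down, but it did not pass after adjustment (edgeR, Benjamini-Hochberg adjusted p = 0.266). Without L05 and L07, an alternative chosen after seeing the data, it was 1.55 (edgeR, adjusted p = 0.565). Shrunken by the prior of DESeq2 it was 0.70 (adjusted p = 0.167). With no filter on low counts, over 1804 miRNA, the edgeR value was 2.81 (adjusted p = 0.0522), inside the threshold of 0.1. In that fit the fold change was nearly unchanged, and the standard error was smaller, at 0.68.

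Over all 490 miRNA tested, edgeR called 0 between the diets at an adjusted p under 0.1, or 0%, and 77, or 15.7%, had an unadjusted p under 0.05. DESeq2 called 23, or 4.69%, and limma-voom 0, with 60 at an unadjusted p under 0.05. Of the members, miR-184 was among the 77, and none was among the 23. The log2 fold changes of the 490 miRNA were above 0 for 245 and below 0 for 245.

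**Figure D2:**
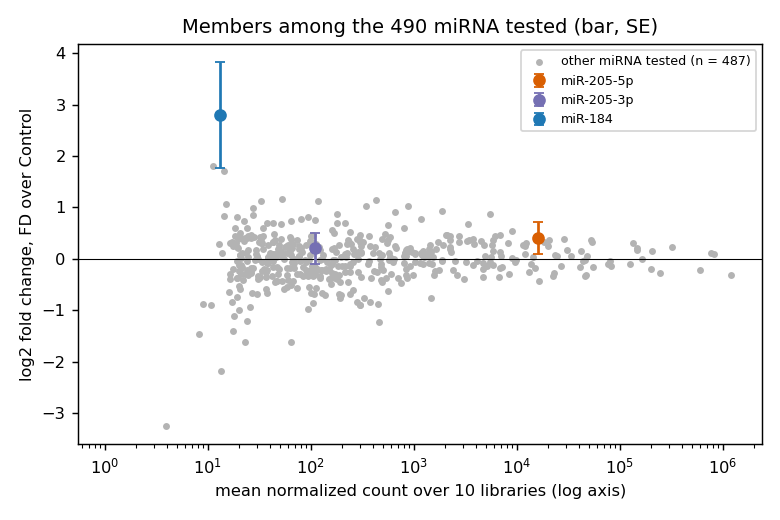
Log2 fold change, FD over Control (vertical axis), against mean normalized count over the 10 libraries (horizontal axis, log scale) for the 490 miRNA tested, with the members in colour and their standard errors as bars. miR-205-5p (0.41) and miR-205-3p (0.20) lie within the cloud of the other 487, and miR-184 (2.80) lies above it with the widest bar of the 3.

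Set against the miR-200 family, which marks epithelial cells, miR-205-5p again varied widely among goats of the same diet. The family had 9 rows, and its summed normalized count was 218062 ± 8631 (SD, n = 4) for Control goats and 194631 ± 29427 (SD, n = 6) for FD goats. Per 1000 reads of the family, the Control libraries held 53.6 reads of miR-205-5p in L01, 75.9 in L04, 28.5 in L06 and 89.0 in L10. The FD libraries held 50.2 in L02, 111 in L03, 129 in L05, 107 in L07, 141 in L08 and 43.9 in L09. As for the level, 4 FD libraries lay above every Control library and the other 2, L02 and L09, lay below L01. The mean log2 ratio was -4.14 ± 0.73 (SD, n = 4) for Control goats and -3.50 ± 0.72 (SD, n = 6) for FD goats, a difference of 0.64 (exact permutation of the diets, two-sided, 210 splits, p = 0.205). The difference was 0.31 without Control L06 (p = 0.5, exact permutation) and 0.86 without Control L10 (p = 0.131, exact permutation). The smallest p the test can give with all libraries is 0.00476.

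The other members gave the same answer at that threshold of 0.05. miR-205-3p stood at 0.245 to 0.671 reads per 1000 family reads in Control and at 0.291 to 1.05 in FD, a log2 difference of 0.45 (exact permutation p = 0.305). miR-184 stood at 0 to 0.0440 in Control (median 0.00555) and at 0.00750 to 0.248 in FD (median 0.0649). Its log2 difference, with 0.5 added to each count, was 2.89 (exact permutation p = 0.0524). That p was 0.0476 without FD L03, 0.0357 without Control L06 and 0.0159 without FD L09. It was 0.107 without Control L04 or Control L10, between 0.0635 and 0.0714 without each of the other 5 libraries, and 0.129 for the ratio without logs.

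**Figure D3:**
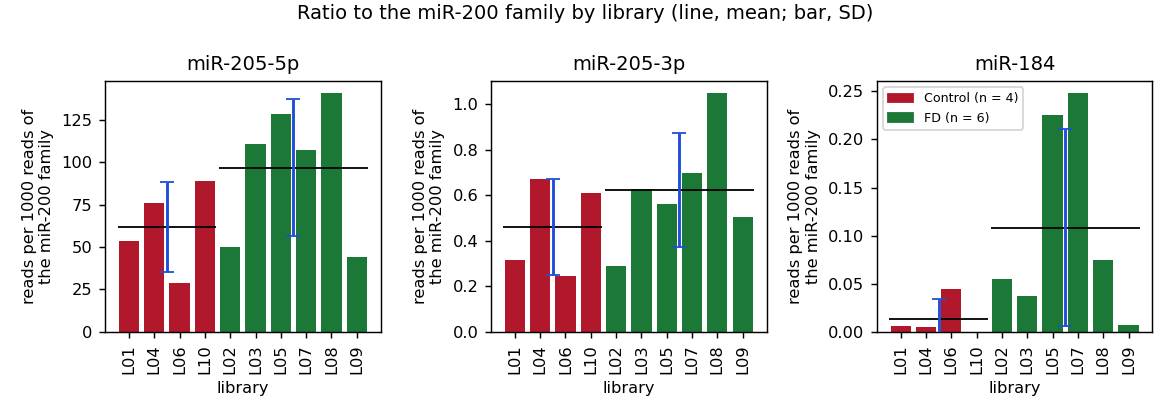
Reads of each member per 1000 reads of the miR-200 family (vertical axis, a separate linear scale in each panel) in each library (horizontal axis), with Control in red, FD in green, the mean as a black line and the SD as a blue bar cut off at 0. For miR-205-5p the green bars of L03, L05, L07 and L08 (107 to 141) exceed every red bar (28.5 to 89.0), and those of L02 and L09 do not.

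The arms of miR-205 were used very unequally in both diets, and the diets differed by less than the spread between goats. Over all libraries there were 145 reads of the 5p arm for each read of the 3p arm. The share of the 3p arm was 0.588% in L01, 0.877% in L04, 0.852% in L06 and 0.679% in L10 among Control, and 0.576% in L02, 0.562% in L03, 0.434% in L05, 0.645% in L07, 0.738% in L08 and 1.14% in L09 among FD. Both ends of this range lay in FD: the 95% Wilson interval was 0.350% to 0.539% for L05 and 0.963% to 1.35% for L09. The mean share was 0.749% ± 0.139 (SD, n = 4) for Control goats and 0.682% ± 0.245 (SD, n = 6) for FD goats. The log2 ratio of 5p to 3p differed by 0.19, FD minus Control (exact permutation p = 0.5). This difference ranged from 0.07 without FD L05 to 0.35 without FD L09 (exact permutation p = 0.786 and 0.111).

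The levels of the arms were positively correlated across goats. On deviations from the diet mean of log2(normalized count + 1), Pearson's r between miR-205-5p and miR-205-3p was 0.761 (permutation p = 0.0134) and Spearman's rho 0.648 (permutation p = 0.0481) over the 10 libraries. Without L06 and L09, the libraries farthest from the median, r was 0.859. miR-205-5p and miR-184 gave r = -0.0788 (permutation p = 0.823) and rho = -0.382 (permutation p = 0.280), and r = -0.133 without L06 and L09. These were the 2 pairs compared, and their p-values were not adjusted, with the rho of the arms close to the threshold of 0.05. The permutations ran over all 10 libraries and not within each diet, which can make p somewhat too small for deviations from the diet mean.

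The miRNA whose deviations were most like those of each member were ranked by r over the same 10 libraries among the 487 others tested, as a description with no test. For miR-205-5p they were miR-16a-3p (r = 0.922, rho = 0.927), miR-26a-5p (r = 0.913, rho = 0.818) and miR-101-5p (r = 0.893, rho = 0.976). Their mean levels ran from 18.5 for miR-16a-3p through 167 for miR-101-5p to 317431 for miR-26a-5p, so these 3 were not alike in abundance. Without L06 and L09 the 3 values of r were 0.849, 0.919 and 0.857.

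For miR-205-3p the nearest were miR-34c-5p (r = 0.880), miR-26a-5p (r = 0.853) and miR-196b (r = 0.851), and miR-26a-5p thus stood near both arms. Without L02 and L06 their r fell to 0.690, 0.644 and 0.717. For miR-184 the nearest were miR-1842 (r = 0.730), chr14_19699-3p (r = 0.726) and chr26_33637-5p (r = 0.686), lower over all 10 libraries than for either arm of miR-205. The last 2 of these are predicted miRNA named by their precursor. Without L06 and L09 the 3 values of r for miR-184 were 0.619, 0.618 and 0.716, near those of miR-205-3p without L02 and L06.

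Whole mammary tissue holds several cell types, and miRNA known from each were counted beside the members. Among 11 tested rows of the epithelial list (miR-200 family, miR-182, miR-183 and miR-96), 3 had a log2 fold change above 0 and 8 below, with a median of -0.18. 2 of them, miR-200b and miR-429, had an unadjusted p under 0.05, both at -0.34 (edgeR, adjusted p = 0.304 and 0.306). Over all 490 miRNA tested, 245 were above 0 and 77, or 15.7%, had an unadjusted p under 0.05. miR-141, the most abundant of the family, was at -0.11 (adjusted p = 0.638). The summed level of the list ranged from 209957 to 235798 in Control and from 162735 to 239821 in FD.

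For cells outside the epithelium, all 4 stromal fibroblast rows had a log2 fold change above 0 (median 0.43), with sums of 3397 to 4277 in Control and 3130 to 7260 in FD. So did both endothelial rows (median 0.34), each with an unadjusted p under 0.05, with sums of 117544 to 144955 and 136542 to 197735. Of 4 leukocyte rows 3 did (median 0.93), the same 3 with an unadjusted p under 0.05, with sums of 8175 to 12641 and 8352 to 18723. All 3 erythroid rows did (median 0.33), 1 of them at an unadjusted p under 0.05, with sums of 3750 to 6061 and 5961 to 8756. Beside these counts stand the 245 of all 490 miRNA above 0 and the 15.7% with an unadjusted p under 0.05. Both endothelial rows are arms of miR-126 and 2 of the leukocyte rows are arms of miR-223, so the rows of a list are not independent. At an adjusted p under 0.1, edgeR called 0 rows in any list. The lists were not complete: miR-142 of the leukocyte list, miR-486 of the erythroid list and miR-124 of the neural list matched no row.

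The smooth muscle and myoepithelial list, the compartment closest to the known home of miR-205, was balanced. Of its 4 rows 2 were above 0 and 2 below (median -0.02), with sums of 686130 to 925098 in Control and 576302 to 1128970 in FD. For the striated muscle list, miR-1 and miR-133a-3p were tested, both above 0 (median 0.08). Sums of this list, taken without miR-133b, were 476 to 1128 in Control and 493 to 1337 in FD. miR-133b had 2 tested rows of the same value, each at 0.08 (edgeR, adjusted p = 0.902). miR-206 and miR-208b of this list never exceeded 1 count. The neural list had 1 tested row (0.33), with sums of 20.7 to 54.7 and 24.9 to 65.2, and the 2 rows of miR-7, which marks islet and neuroendocrine cells, had sums of 276 to 428 and 332 to 428, 1 above 0 and 1 below. miR-122, which defines hepatocytes, never exceeded 2 counts.

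The most abundant tested row of each list was then correlated with miR-205-5p and with miR-184 on deviations from the diet mean. These 18 pairs were chosen after seeing the data, and miR-133b was left out of the striated muscle list. The highest r was that of miR-205-5p with miR-133a-3p, a miRNA of skeletal and cardiac muscle, at 0.828 (permutation p = 0.00558, adjusted over the 18 pairs 0.1004), with rho = 0.636 (permutation p = 0.0540, adjusted 0.512) and r = 0.595 without L06 and L09. With miR-143-3p of smooth muscle, miR-205-5p gave r = 0.597 (permutation p = 0.0699, adjusted 0.314), and with the epithelial miR-141 it gave r = -0.493 (permutation p = 0.169, adjusted 0.452). Its r was 0.611 with miR-7-3p of the islet and neuroendocrine list and 0.517 with miR-199b-5p of stromal fibroblasts. For miR-9-5p, miR-451-5p, miR-126-5p and miR-155-5p it was 0.336, 0.262, -0.176 and -0.335. The other rows of the smooth muscle and epithelial lists, which had fold changes of both signs, were not correlated. For miR-184 the highest r was that with miR-155-5p of leukocytes, at 0.664 (permutation p = 0.0344, adjusted 0.310), and with miR-141 it was -0.384. No pair of the 18 passed 0.05 after adjustment. miR-155-5p was the 1 leukocyte row with a log2 fold change below 0 (-0.12), while miR-223-3p stood at 1.15, miR-223-5p at 0.996 and miR-150 at 0.87, so these 3 were correlated too, in 6 further pairs. miR-184 gave r = -0.505 with miR-223-3p, -0.557 with miR-223-5p and 0.326 with miR-150 (permutation p = 0.143, 0.0931 and 0.355), with rho = -0.406, -0.418 and 0.0182 (permutation p = 0.247, 0.235 and 0.972), so the leukocyte rows did not share a sign. miR-205-5p gave r = 0.716 with miR-150 (permutation p = 0.0221, adjusted over the 6 pairs 0.132), rho = 0.648 (permutation p = 0.0484, adjusted 0.290) and r = 0.749 without L06 and L09, and with the miR-223 arms r = -0.144 and -0.0443 (permutation p = 0.659 and 0.910). None of the 6 passed 0.05 after adjustment. The part of cell composition in the values of the members was not tested.

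**Figure D4:**
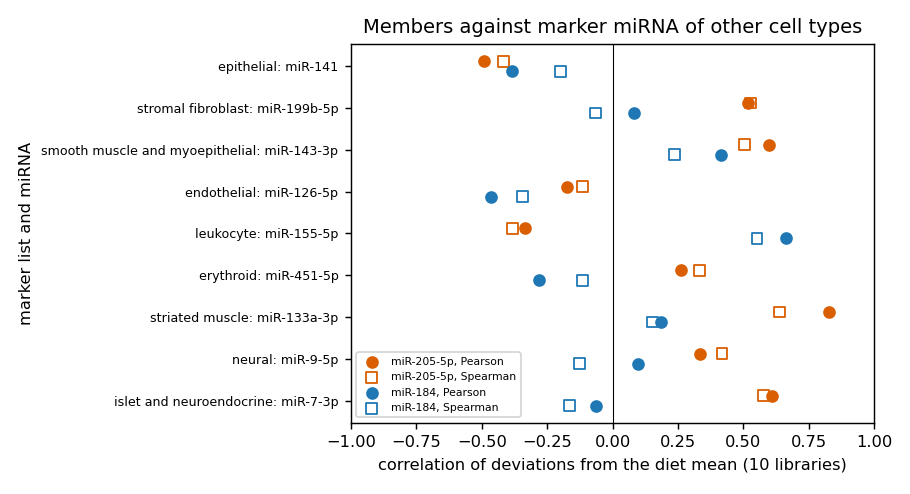
Correlation (horizontal axis, from -1 to 1) of miR-205-5p (orange) and miR-184 (blue) with the most abundant tested miRNA of each marker list (vertical axis; miR-133b left out), over deviations from the diet mean in 10 libraries, as Pearson's r (filled circles) and Spearman's rho (open squares). miR-133a-3p (r = 0.828) lies farthest to the right for miR-205-5p and miR-155-5p (r = 0.664) for miR-184, and miR-141 lies to the left of 0 for both.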

How the data were processed

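Small RNA was sequenced from mammary tissue of 4 Control and 6 FD goats. The authors deposited raw read counts per mature miRNA and library, made with Cutadapt, a length filter of 17 to 28 nt, CHIR_1.0 and the miRDeep2 quantifier. CASAVA 1.8.2 is named in the submitters' processing notes. The miRDeep2 score and hairpins were deposited by the authors from the pooled reads. The authors' normalized columns were not used.

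Members, lists, tests and alternatives were chosen with earlier results of these data known. The miRNA named are the members, the 3 most alike by Pearson's r, and rows of the marker lists. Neighbours by level and miRNA called in few-call alternatives were named after their values were seen. Diets were compared with the edgeR quasi-likelihood test (TMM, no covariates, two-sided) on miRNA with a normalized count above 28 in at least 1 library, and adjusted by Benjamini-Hochberg over all 490, threshold 0.1. Ratios used exact permutation (0.5 added to counts) and correlations 100000 permutations over all libraries, not within each diet, threshold 0.05. DESeq2, limma-voom, other filters and scalings, and each library left out were alternatives. The model fits and the statistical functions, but not the other scripts, were tested on simulated data.

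Software was R 4.3.3, edgeR 4.0.16, DESeq2 1.42.0, limma 3.58.1, Python 3.11.15, scipy 1.17.1 and RNAfold 2.7.2.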

Additional observations from a re-analysis of the deposited data

Results flagged for a closer look

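Of the 14 groups of values checked for a library far from the rest, 1 had such a library. Among the 4 Control goats, the normalized count of miR-184 in L06 was 9.80 while the other 3 lay between 0 and 1.38. The gap to the nearest library took up 0.859 of the whole range of the group, above the 95% critical value of Dixon's test. For independent groups of normally distributed values, about 1 group in 20 would be singled out by chance. The 14 groups shared libraries, and the flagged one rested on counts of 0 to 7, so that rate is only a rough guide here. L06 was also the Control library with the lowest miR-205-5p (6356) and miR-205-3p (54.6).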

How the results depend on the processing

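The number of miRNA called between the diets was 0 by edgeR, 23 by DESeq2 with its prior and 24 without it (chosen after seeing the data), 5 with no filter on low counts and 1 among known miRNA alone. Leaving out each library gave 0 to 1 calls, with the 1 call when FD L02 was left out. The single call in both cases was miR-204-5p, and the 5 were miR-204-5p, miR-223-3p, miR-184, chr3_3319-5p and scaffold986_36329-3p, all named after their values were seen. For miR-184 the log2 difference passed its threshold with no filter (2.81), with DESeq2 without the prior (2.72, adjusted p = 0.0974) and in an exact permutation test of log2(normalized count + 1) that was also chosen after seeing the data (2.38, unadjusted p = 0.0476). It did not pass in any of the other alternatives run, where leaving out each library gave 2.27 to 4.56. The difference in the log2 ratio of miR-184 to the miR-200 family, FD minus Control, ranged from 2.19 to 3.68 when each library was left out. The correlation of miR-205-5p with miR-184 changed sign without centring on the diet (0.196), without logs (0.262) and on CPM (counts scaled to the library total, 0.0869), and ranged from -0.508 to 0.424 with each library left out. The cause of these changes was not tested.

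The log2 fold changes of miR-205-5p (0.19 to 0.61) and miR-205-3p (0.02 to 0.39) stayed above 0 and outside the threshold in the 21 alternatives run for each. So did the differences, FD minus Control, of the ratios of miR-205-5p and miR-205-3p to the family in 14 each. The 5p to 3p ratio was higher in FD and outside the threshold in 12, of which 1 gave it as the 3p share, 0.682% in FD against 0.749% in Control. A filter above 100 left no miR-184 value. No paired analysis was possible because the goats of the diets carry no shared numbers in the labels. Depth limited miR-184 most, at 0 to 62 counts per library.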
